A study of Rattus norvegicus with 6 samples.

Results

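AMPA receptors are the glutamate-gated channels that carry most fast excitatory transmission in the hippocampus. The channel is a tetramer of GluA subunits encoded by the Gria genes, and GluA2 decides whether calcium can pass. Around this core sit auxiliary proteins. The transmembrane AMPA receptor regulatory proteins (TARPs, encoded by Cacng genes) and the cornichons (Cnih genes) help the receptor leave the endoplasmic reticulum, hold it at the synapse and slow its closing. Cyclin Y (CCNY) has been studied as a brake on the delivery of AMPA receptors to synapses during long-term potentiation, so the transcripts of this complex are of interest when CCNY is raised or lowered.

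The genes described here were chosen by name: the subunits Gria1, Gria2, Gria3 and Gria4, the TARPs Cacng2, Cacng3 and Cacng8, the cornichon Cnih2, and Gsg1l, a claudin-like auxiliary protein. Of these 9 genes, 7 had a row among the 17066 genes of the deposited table, and Gria1 and Gsg1l were not analysed here. All 7 passed the filter on low values, which kept 10188 genes. Primary hippocampal neurons of embryonic day 18 (Sprague-Dawley rats) were infected at 5 or 6 days in vitro with FUGW lentivirus carrying EGFP alone (the control), CCNY-WT-EGFP (overexpression) or CCNY-shRNA-EGFP (knockdown), so every group, control included, was infected and expressed EGFP, from a vector whose ubiquitin promoter is not specific to neurons. RNA was taken at 14 days in vitro, and each of the 3 conditions had 2 libraries. No source says that the 2 libraries of a condition came from separate cultures, so p-values measure the spread between libraries, which may be technical. No control hairpin is named, and the knockdown is described with a single shRNA construct.

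The table gives FPKM, in which the fragments of a gene are divided by its transcript length and by the size of the library, so that levels of different genes can be set side by side. It holds no read counts. From the steps between low FPKM values, the depth of the other libraries relative to EGFP replicate 1 was estimated at 0.818 to 1.33. One transcript, Bc1, took 15.1% of the FPKM sum of CCNY-WT replicate 1 and was listed at 0 elsewhere. By the median ratio over genes, the scaling factor of that library was 1.003, beside 0.999 to 1.003 in the others. Ccny itself stood at FPKM values of 43.1 and 42.3 under EGFP, 108 and 109 under CCNY-WT, and 5.98 and 6.19 under CCNY-shRNA. All 6 neuron markers were present, with summed FPKM values of 2360 to 2371 in EGFP, 2267 to 2278 in CCNY-WT and 2343 to 2405 in CCNY-shRNA. The summed level of 3 GABAergic markers was 485 to 498, 508 to 518 and 433 to 434. That of the 5 astrocyte markers in the table was 358 to 369, 372 to 381 and 295 to 361. The 4 excitatory markers summed to 1469 to 1527, 1434 to 1439 and 1437 to 1447. Microglial markers summed to at most 0.389 in any library, with Aif1 and Cx3cr1 listed at 0 in all 6. The 6 oligodendrocyte-lineage markers summed to between 30.8 and 40.1, and the 3 markers of dividing cells to between 1.49 and 2.86.

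In control neurons the most abundant of the 7 transcripts were Cnih2 and Gria2, and the least abundant was Cacng3. The mean FPKM in EGFP was 267 ± 2.30 (SD, n = 2) for Cnih2 and 263 ± 11.7 for Gria2, which ranked 377 and 383 among all genes. Their ranges overlapped in EGFP, so these neighbours did not differ beyond their spread. Next came Cacng8 at 111 ± 1.44, Gria4 at 54.7 ± 3.57, Cacng2 at 49.2 ± 2.96, Gria3 at 27.3 ± 1.96 and Cacng3 at 19.1 ± 3.15. The libraries of each of these lay apart from those of the next gene in the order. The same order of mean levels was found in CCNY-WT and in CCNY-shRNA, where Cnih2 and Gria2 no longer overlapped.

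**Figure D1:**
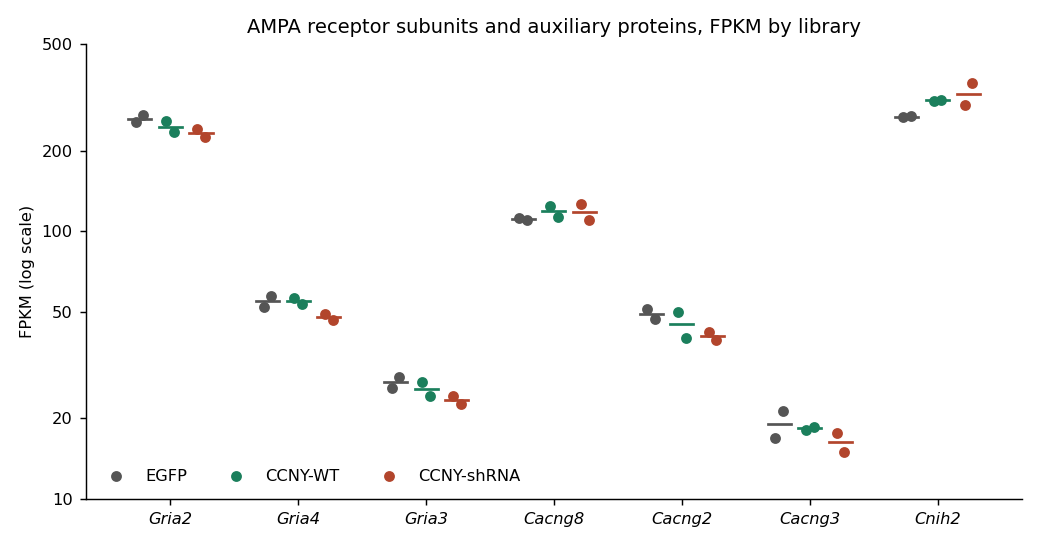
FPKM (log scale) of the 7 genes in each library, with points for the 2 libraries of EGFP, CCNY-WT and CCNY-shRNA and bars for their means. In CCNY-shRNA both libraries of Gria2, Gria3, Gria4 and Cacng2 lie below both EGFP libraries, and both libraries of Cnih2 lie above them.

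No member passed an adjusted p of 0.05 in any of the 3 comparisons made with limma. In CCNY-shRNA against EGFP the share of all tested genes that passed was 0.579% for lower and 0.167% for higher genes, 0.746% in all. At an unadjusted p under 0.05, 4 of the 7 members were lower in CCNY-shRNA (Gria2, Gria3, Gria4 and Cacng2) and 1 was higher (Cnih2), against 9.36% and 9.20% of all genes tested (18.6% in either direction). The count of 5 dropped to 1 without the filter on low values and to 1 without limma's trend of variance on level, and to 2 without EGFP replicate 2 and to 2 without CCNY-shRNA replicate 2. Where a library is left out, its condition has 1 library, which is assumed to vary like the other groups. The median log2 change of the 7 members was -0.19, beside 0 over all genes tested. Summed levels of the excitatory, GABAergic and oligodendrocyte-lineage markers given above were also lower in both CCNY-shRNA libraries than in EGFP. That of the astrocyte markers was lower in 1 of them, and that of the neuron markers overlapped with EGFP. These 2 sums hide markers that moved apart. Without overlap with EGFP, Tubb3 (log2 change 0.16) and Snap25 (0.10) were higher. Map2 (-0.11), Syn1 (-0.13) and Syt1 (-0.13) were lower, and Rbfox3 overlapped. Of the astrocyte markers Slc1a2 (-0.32, limma adjusted p = 0.0768) and Slc1a3 (-0.24) were lower in both libraries, while Gfap, Aqp4 and S100b overlapped. The excitatory sum was also below EGFP in both CCNY-WT libraries. Of the 4 excitatory markers 3 had a negative log2 change in CCNY-shRNA, but Slc17a7, the most abundant, had 0.02 (limma adjusted p = 0.887). Of all these markers Gad2, which makes GABA, fell past the adjusted threshold (log2 change -0.41, limma adjusted p = 0.0226). Calls of this kind depended on the settings. Over all genes 59 fell past that threshold in the main fit, 1 without the filter on low values and 1 without the trend. Gad1, which also makes GABA, changed by -0.03 (limma adjusted p = 0.813) and Slc32a1 by -0.13 (limma adjusted p = 0.332). The part of the marker changes in the members' values was not tested. In these bulk samples, fewer cells of a type and less RNA per cell cannot be told apart.

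Gria2 encodes the subunit that, after RNA editing, makes the channel impermeable to calcium. Its FPKM was 255 and 272 under EGFP, 257 and 235 under CCNY-WT, and 241 and 224 under CCNY-shRNA. Both knockdown libraries were below both controls, by a margin smaller than the gap between the EGFP libraries. The overexpression libraries spanned that margin. The log2 change in CCNY-shRNA was -0.18 (standard error 0.0685, 95% interval -0.34 to -0.02, limma adjusted p = 0.219). In CCNY-WT it was -0.10 (interval -0.26 to 0.06, limma adjusted p = 0.813).

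Gria4 encodes GluA4, a subunit known for its place in early postnatal synapses and in interneurons. Its FPKM was 52.2 and 57.2 under EGFP, 56.5 and 53.3 under CCNY-WT, and 49.1 and 46.7 under CCNY-shRNA. The knockdown libraries were the lowest of the 6, below the controls by a margin smaller than the gap between the EGFP libraries. EGFP and CCNY-WT overlapped. The log2 change was -0.19 in CCNY-shRNA (standard error 0.0697, interval -0.35 to -0.03, limma adjusted p = 0.204) and 0.01 in CCNY-WT (interval -0.16 to 0.17). Set directly against CCNY-WT, Gria4 differed in CCNY-shRNA by -0.20 (limma adjusted p = 0.333).

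Gria3 encodes GluA3, which pairs mostly with GluA2 in receptors that enter synapses without activity. It was the weakest of the subunits measured, at 25.9 and 28.6 under EGFP, 27.2 and 24.2 under CCNY-WT, and 24.2 and 22.5 under CCNY-shRNA. The knockdown libraries again lay below the controls, by a margin smaller than the gap between the EGFP libraries. The log2 change in CCNY-shRNA was -0.22 (standard error 0.0929, interval -0.44 to -0.01, limma adjusted p = 0.255). In CCNY-WT it was -0.08 (interval -0.30 to 0.13).

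Although the subunits were lower in the knockdown libraries, their proportions stayed close to one another. Gria2 made up 76.6% and 76.0% of the summed FPKM of Gria2, Gria3 and Gria4 under EGFP, 75.4% and 75.2% under CCNY-WT, and 76.7% and 76.4% under CCNY-shRNA. Gria4 took 15.7% and 16.0% under EGFP, 16.6% and 17.1% under CCNY-WT, and 15.6% and 15.9% under CCNY-shRNA. In CCNY-WT the share of Gria2 was therefore 0.973 percentage points lower on average and that of Gria4 0.989 points higher, without overlap of the libraries. An exact two-sided permutation test gave p = 0.333 for each, the smallest that 2 libraries against 2 allow, so this test cannot reach 0.05 here. The share of Gria3 lay between 7.68% and 8.02% in all libraries. It was 7.77% and 8.02% under EGFP, 7.99% and 7.76% under CCNY-WT, and 7.69% and 7.68% under CCNY-shRNA. The knockdown libraries were lowest, with mean differences of -0.209 points from EGFP and -0.193 from CCNY-WT (exact permutation p = 0.333 for each). These shares leave out Gria1, and so do not give the make-up of the whole receptor. The summed FPKM of the 3 subunits was 333 and 357 under EGFP, 341 and 312 under CCNY-WT, and 314 and 294 under CCNY-shRNA.

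Cacng2 encodes stargazin, the founding TARP, which ties the receptor to the scaffold PSD-95. Its FPKM was 51.3 and 47.1 under EGFP, 49.97 and 39.9 under CCNY-WT, and 41.9 and 39.1 under CCNY-shRNA. The knockdown libraries were below both controls, and CCNY-WT replicate 2 lay among them. Cacng2 had the largest fitted decrease of the members in CCNY-shRNA, at -0.28 (standard error 0.108, interval -0.53 to -0.03, limma adjusted p = 0.219). In CCNY-WT the change was -0.14 (limma adjusted p = 0.844).

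Cacng3, a close relative of stargazin, had FPKM values of 16.9 and 21.3 under EGFP, 18.1 and 18.6 under CCNY-WT, and 17.6 and 15.0 under CCNY-shRNA. The gap between the EGFP libraries was wider than that between the conditions, and the groups overlapped. The log2 change in CCNY-shRNA was -0.22 (standard error 0.132, limma adjusted p = 0.408). With overexpression it was -0.05 (limma adjusted p = 0.968). Cacng8, the TARP most typical of the hippocampus, was at 112 and 109.9 under EGFP, 124 and 113 under CCNY-WT, and 126 and 110.3 under CCNY-shRNA. Its log2 changes were 0.10 in CCNY-WT (interval -0.08 to 0.27, limma adjusted p = 0.853) and 0.09 in CCNY-shRNA (interval -0.09 to 0.27, limma adjusted p = 0.572), and its difference from the other TARPs was not tested. Without CCNY-shRNA replicate 1 the change in the knockdown was -0.00753.

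The levels of the TARPs relative to one another are given as a description, since 0 of the 3 passed in limma. Cacng8 made up 62.2% and 61.6% of the summed FPKM of Cacng2, Cacng3 and Cacng8 under EGFP, 64.5% and 66.0% under CCNY-WT, and 68.0% and 67.1% under CCNY-shRNA. The 3 groups did not overlap, and the mean difference from EGFP was 3.36 percentage points in CCNY-WT and 5.66 in CCNY-shRNA (exact permutation p = 0.333 for each, the smallest possible). This share was computed after the values of the members had been seen. The ratio of these 3 TARPs to the 3 subunits was 0.541 and 0.499 under EGFP, 0.564 and 0.550 under CCNY-WT, and 0.592 and 0.560 under CCNY-shRNA. With Cacng4, Cacng5 and Cacng7 added, the ratio was 0.962 and 0.952 under EGFP, 1.021 and 1.016 under CCNY-WT, and 1.083 and 1.087 under CCNY-shRNA. For this ratio the replicates lay close together and the 3 groups did not overlap, with mean differences from EGFP of 0.0615 and 0.128 (exact permutation p = 0.333 for each). A lower sum of subunits also raises this ratio. That sum differed from EGFP by -18.8 under CCNY-WT, with overlap, and by -41.2 under CCNY-shRNA, without overlap. In the knockdown Cacng2 (-0.28), Cacng3 (-0.22) and Cacng4 (-0.20) had negative log2 changes, and Cacng5 (0.99), Cacng7 (0.07) and Cacng8 (0.09) positive ones. Whether the summed level of the TARPs changed was not tested. Both conditions were set against the same EGFP libraries.

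Cnih2 encodes cornichon-2, which slows the deactivation of AMPA receptors and is strong in hippocampal pyramidal cells. Its FPKM was 266 and 269 under EGFP, 307 and 309 under CCNY-WT, and 295 and 357 under CCNY-shRNA. All 4 libraries with altered CCNY lay above both controls, and CCNY-shRNA replicate 2 stood highest. The log2 change was 0.20 in CCNY-WT (interval 0.01 to 0.40, limma adjusted p = 0.729). Knockdown gave 0.28 (interval 0.08 to 0.48, limma adjusted p = 0.152), each with a standard error of 0.0857. Without CCNY-shRNA replicate 1 the change in the knockdown was 0.42, with a limma adjusted p of 0.0359 that rests on 1 knockdown library and on the spread within the other groups, and without replicate 2 it was 0.14. The other libraries left out in turn gave no adjusted p under 0.05. Relative to the summed FPKM of the 3 subunits, Cnih2 stood at 0.798 and 0.753 under EGFP, 0.900 and 0.991 under CCNY-WT, and 0.938 and 1.214 under CCNY-shRNA. This ratio, also computed after the values had been seen, was higher than in EGFP in all 4 libraries of the other conditions (exact permutation p = 0.333 for each condition).

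**Figure D2:**
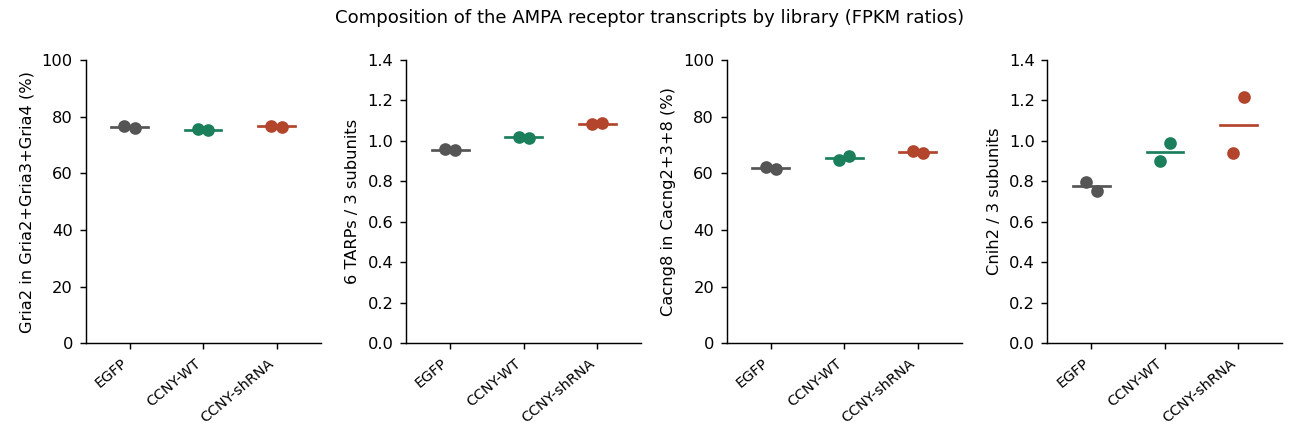
Ratios of FPKM values in each library (points) with the mean of each condition (bars): the share of Gria2 among the 3 subunits in percent, the ratio of 6 TARPs to the 3 subunits, the share of Cacng8 among 3 TARPs in percent, and the ratio of Cnih2 to the 3 subunits. The share of Gria2 stays between 75.2% and 76.7%, while the other 3 panels are lowest in both EGFP libraries.

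The stretches upstream of Cnih2 and Cacng2 are shown because these genes had the largest fitted increase and the largest fitted decrease among the members in CCNY-shRNA. RefSeq promoter sequences (build GRCr8) were found for 6 of the 9 members. Each sequence below is the 250 bases before the gene start, read 5′ to 3′ on the minus strand, on which both genes lie. Capitals mark matches to 4 motifs searched on both strands: the cAMP response element TGACGTCA, the Sp1 box GGGCGG, the CCAAT box and the TATA box TATAAA. The first lies at chr1:211834438-211834687 and the second at chr7:111577758-111578007.
Cnih2: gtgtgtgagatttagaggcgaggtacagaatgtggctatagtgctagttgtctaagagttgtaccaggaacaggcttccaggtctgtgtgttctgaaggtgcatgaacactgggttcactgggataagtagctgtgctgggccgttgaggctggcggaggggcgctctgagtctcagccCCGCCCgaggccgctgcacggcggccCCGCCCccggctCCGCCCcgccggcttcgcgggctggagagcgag
Cacng2: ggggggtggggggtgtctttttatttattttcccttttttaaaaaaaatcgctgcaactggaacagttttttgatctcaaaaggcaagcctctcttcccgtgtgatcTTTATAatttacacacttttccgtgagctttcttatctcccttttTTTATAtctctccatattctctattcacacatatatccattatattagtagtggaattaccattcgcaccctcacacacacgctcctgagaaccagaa
The upstream stretch of Cnih2 had a GC content of 62.8% and 3 Sp1 boxes on the opposite strand, a motif found in 30.5% of 33469 promoter stretches of this length. That of Cacng2 had a GC content of 38.4% and no Sp1 box. It held 2 matches to the TATA box, also on the opposite strand, which 12.9% of all stretches contain. The median GC content of all stretches was 51.2%. The cAMP response element (1.59% of all stretches) and the CCAAT box (34.0%) were found in neither window. These matches describe the letters only.

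In CCNY-WT against EGFP, 1 of the 7 members (Cnih2, higher) had an unadjusted p under 0.05, against 3.83% of all tested genes in that direction and 6.83% in either, and 0 of 7 passed the adjusted threshold, against 0.00982% of all genes. The median log2 change of the members was -0.05. In CCNY-shRNA against CCNY-WT, 1 member (Gria4, lower) had an unadjusted p under 0.05, against 7.12% of all genes (5.05% were higher and 12.2% differed in either direction), and 0 passed after adjustment, against 0.216% (0.0196% higher and 0.196% lower). The log2 differences there ran from -0.20 for Gria4 to 0.07 for Cnih2. Groups that did not overlap were found for 4 lower members and 1 higher member in CCNY-shRNA against EGFP, a pattern shown by 24.5% and 23.9% of all tested genes. In CCNY-WT they were found for 2 higher members (Cnih2 and Cacng8) and 0 lower ones, against 20.3% and 19.2% of all genes. Between CCNY-shRNA and CCNY-WT they were found for 3 lower members (Gria3, Gria4 and Cacng3), against 21.9%. Members that moved together between libraries, as given above, are counted singly here.

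The intervals are those of single genes and rest on the spread between libraries, which may be technical, so they do not cover the spread between cultures. Over the 7 members, the 95% intervals of the log2 change reached at most from -0.39 to 0.40 in CCNY-WT and from -0.53 to 0.48 in CCNY-shRNA, the lower bounds being those of Cacng2 and the upper ones those of Cnih2. By the fold thresholds of the study alone, a log2 change of at least 0.3 in CCNY-WT or 0.33 in CCNY-shRNA, 0 of the 7 members passed in either condition. Among all genes tested, 4.59% were higher and 3.76% lower in CCNY-WT by this criterion, and 5.52% and 7.59% in CCNY-shRNA. This criterion involves no test, whereas the study also names cuffdiff for selecting genes, which was not run here. With 1 library left out the count was 1 without CCNY-WT replicate 1 in the overexpression comparison. In the knockdown comparison it was 3 without CCNY-shRNA replicate 1 and 1 without either EGFP replicate 1 or EGFP replicate 2.

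**Figure D3:**
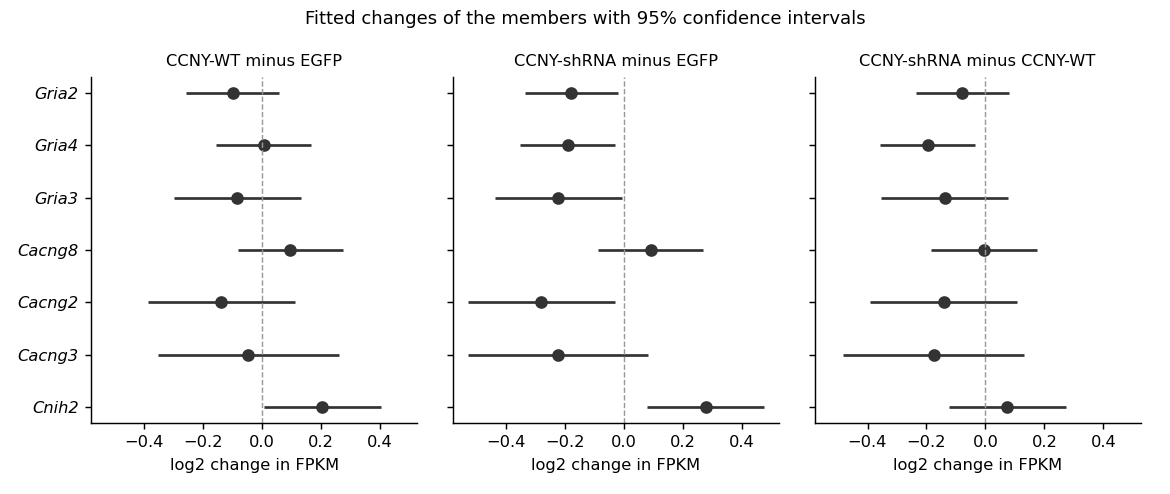
Fitted log2 change in FPKM of the 7 genes (points) with 95% confidence intervals (lines) in the 3 comparisons. In CCNY-shRNA minus EGFP the intervals of Gria2, Gria4, Gria3 and Cacng2 lie below 0 and that of Cnih2 above 0 before adjustment for the number of genes tested.

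Other proteins that bind, assemble, move or modify AMPA receptors were taken from 7 lists written from general knowledge. Of 66 listed genes, 62 were in the table and 58 could be tested. In CCNY-shRNA 2 of them fell past the adjusted threshold, Olfm2 and Prkca, and 0 rose, against 0.579% lower and 0.167% higher among all genes tested. Before adjustment (p under 0.05) 3 of the 58 were higher and 11 lower, against 9.20% and 9.36% of all genes. In CCNY-WT 0 of 58 passed, and before adjustment 1 was higher and 3 were lower, against 3.83% and 3.00% of all genes. Without the filter on low values, and without the trend, 0 of the 58 passed in CCNY-shRNA. The median log2 change of the 58 genes was -0.04 in CCNY-shRNA and -0.01 in CCNY-WT.

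Olfm2 encodes olfactomedin-2, a secreted protein of the noelin family that binds AMPA receptors from outside the cell. Its FPKM was 51.5 and 56.4 under EGFP, 48.7 and 47.0 under CCNY-WT, and 37.1 and 39.7 under CCNY-shRNA. The 3 groups did not overlap, with the knockdown lowest. The log2 change was -0.49 with the shRNA (limma adjusted p = 0.0415, standard error 0.0710) and -0.17 in CCNY-WT (limma adjusted p = 0.729). Leaving out any of the 6 libraries gave log2 changes from -0.42 to -0.55 and adjusted p-values between 0.0527 and 0.273, from fits with fewer libraries. The adjusted p was 0.145 without the filter and 0.165 without the trend. The other extracellular partners ran from Nptxr, a neuronal pentraxin receptor with the highest mean level of this list at 586, to Olfm3, the weakest at 6.00, and 0 of these passed the threshold. Nptx1, a pentraxin that clusters AMPA receptors, stood at a log2 change of 0.16 in CCNY-shRNA (limma adjusted p = 0.152).

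Prkca encodes protein kinase C alpha, one of the kinases that phosphorylate GluA subunits. In the direct comparison its log2 difference between CCNY-shRNA (62.5 and 59.9) and CCNY-WT (82.9 and 87.0) was -0.47 (standard error 0.0556, limma adjusted p = 0.0252). It was the only one of the 58 genes to pass in that comparison, and it no longer passed without any one library other than CCNY-shRNA replicate 1, with adjusted p-values up to 0.269. Against EGFP it fell by 0.56 on the log2 scale (limma adjusted p = 0.0112), and 0.0856 and 0.142 were the adjusted p-values without EGFP replicate 1 and without EGFP replicate 2. The adjusted p was 0.0778 without the filter and 0.123 without the trend. Camk2b, a subunit of CaM kinase II, had the highest mean level of the modifying enzymes at 431 and Camk2d the lowest at 11.8. Ppp3ca, the catalytic subunit of calcineurin, had the smallest p of the list in CCNY-WT (log2 change -0.11, limma adjusted p = 0.795). Of the 16 enzymes, 6 were lower in CCNY-shRNA at an unadjusted p under 0.05, Prkca among them, and 0 were higher, against 9.36% and 9.20% of all genes tested.

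Among the remaining TARPs, Cacng7 overlapped in level with Cacng8, with FPKM values from 103 to 122 and a log2 change of 0.07 in CCNY-shRNA (limma adjusted p = 0.710). Cacng4 had 34.9 and 36.2 under EGFP, 32.4 and 34.1 under CCNY-WT, and 31.3 and 30.6 under CCNY-shRNA, a log2 change in the knockdown of -0.20 (limma adjusted p = 0.174). Cacng5 was weak and scattered, at 1.74 and 3.99 under EGFP, 3.53 and 5.30 under CCNY-WT, and 6.40 and 4.27 under CCNY-shRNA, and its log2 change of 0.99 carried a standard error of 0.396 (limma adjusted p = 0.238). Cacng1 and Cacng6, calcium channel subunits of muscle, and Gsg1 had too low an FPKM to be tested. Cacng1 was the lowest of the list, with a mean of 0.0337.

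Of the other cornichons 0 passed the threshold in either condition. Cnih3, which also modulates AMPA receptors, had 13.4 and 11.7 under EGFP, 16.0 and 16.9 under CCNY-WT, and 12.1 and 14.0 under CCNY-shRNA. It was higher in both overexpression libraries than in any other library, with a log2 change of 0.40 (limma adjusted p = 0.725) against 0.06 in CCNY-shRNA (limma adjusted p = 0.833). Cnih1, which serves general cargo export, lay between 89.5 and 96.1 in all libraries and Cnih4, the weakest with a mean of 11.5, had a log2 change of -0.18 in CCNY-shRNA (limma adjusted p = 0.663).

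For the CKAMP and SynDIG families 4 of the 6 listed genes could be tested and 0 passed. Their log2 changes in CCNY-shRNA ran from -0.13 for Shisa6, which had the smallest p (limma adjusted p = 0.361), to -0.05 for Shisa7. Prrt1 was the most abundant, with a mean of 46.1 and log2 changes of 0.16 in CCNY-WT (limma adjusted p = 0.742) and -0.12 in the knockdown (limma adjusted p = 0.416), and Shisa8 was the weakest, at 0.400. Of the proteins that assemble or hold the receptor in the endoplasmic reticulum, Porcn, an acyltransferase that also binds AMPA receptors, had 71.2 and 75.6 under EGFP, 66.5 and 66.1 under CCNY-WT, and 65.0 and 60.5 under CCNY-shRNA (log2 change in the knockdown -0.23, limma adjusted p = 0.122). Its libraries formed 3 groups without overlap. Abhd12 was the most abundant of this list at a mean of 99.9 and Cpt1c the least at 26.4.

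Among 20 scaffold and trafficking proteins 0 passed the threshold in either condition. Nsg1, an endosomal protein that recycles AMPA receptors, came closest in CCNY-shRNA, with 490.3 and 513 under EGFP, 505 and 499.8 under CCNY-WT, and 401 and 413 under CCNY-shRNA (limma adjusted p = 0.0600 for a log2 change of -0.30 with standard error 0.0563). Both knockdown libraries lay well below the other 4. Nsg2, its relative, had the highest mean of the list at 1096 and Grip2, a PDZ scaffold of GluA2, the lowest at 3.46. Myo5b, a myosin motor that carries recycling endosomes, had the smallest p of the list in CCNY-WT, where its log2 change was -0.35 (limma adjusted p = 0.729). The median log2 change of the 20 genes was -0.04 in CCNY-shRNA and 0 in CCNY-WT to 2 decimals.

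**Figure D4:**
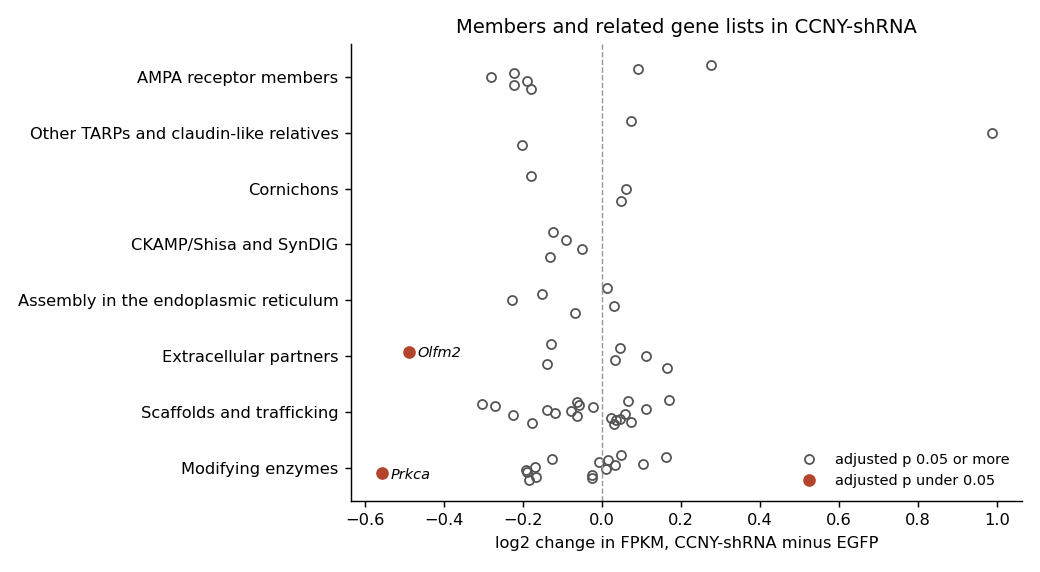
Log2 change in FPKM in CCNY-shRNA against EGFP for the 7 members and for the tested genes of 7 related lists, 1 point per gene, spread vertically within a list for legibility. Filled points mark an adjusted p under 0.05, which Olfm2 (-0.49) and Prkca (-0.56) reached, and the point farthest to the right is Cacng5 (0.99).

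Across the 6 libraries, the genes whose pattern was most like the mean of the 7 members were Scg5, a chaperone of the secretory pathway (Pearson r = 0.993), Fbxo11, an F-box protein (r = 0.985), and Phf20l1, a chromatin reader (r = 0.983). Taken singly, Gria2 and Gria3 were both nearest to Kcna4, a voltage-gated potassium channel (r = 0.993 for each), and Gria4 to Tmx4, a thioredoxin-related membrane protein (r = 0.990). The FPKM of Kcna4 was 27.3 and 31.0 under EGFP, 28.2 and 23.8 under CCNY-WT, and 24.0 and 21.6 under CCNY-shRNA. These are the closest of 8053 genes over only 6 libraries, and are given as a description. All genes of a library share its depth and scaling.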

How the data were processed

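RNA-seq was measured in 6 libraries of cultured rat hippocampal neurons, 2 per condition. Per the labels and methods, poly-A RNA was sequenced, and the authors aligned paired-end reads to rn4 with TopHat2 and deposited 1 Cufflinks (2.2.1) FPKM value per gene and library. Which annotation was counted, and whether libraries were scaled to each other, is not given in the sources used here. FPKM values were floored to 1, as in the study, and log2-transformed. Changes were tested with limma 3.58.1 (R 4.3.3), eBayes with a trend, over the 10188 genes that reached an FPKM of 1 in 2 libraries or more, with Benjamini-Hochberg adjustment and a threshold of 0.05. The fit was tested on simulated data with changes far larger than those of the members, so that test does not show whether changes of their size could be found. Ratios were compared by exact permutation, over 3 subunits in place of the planned 4. Alternatives changed the pseudocount, filter, scaling, trend, libraries fitted, replicate block and library left out. Depth is known only relative to EGFP replicate 1. Named from each related list are genes past the threshold, the smallest p, and the highest and lowest level, with Nptx1 and Shisa7 named after their values were seen. Members and lists were chosen with earlier results of these data known. Promoter sequences came from RefSeq, build GRCr8, and were not matched to rn4.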

Additional observations from a re-analysis of the deposited data

How the results depend on the processing

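For the 7 members in 3 comparisons, 325 of 336 values under 16 alternatives kept their direction and their side of the adjusted threshold. Reversed log2 changes of the members came only from leaving out 1 library. Over these, the log2 change in CCNY-WT ran from -0.169 to 0.000399 for Gria3 and from -0.301 to 0.0244 for Cacng2 (each reversed without CCNY-WT replicate 2), from -0.0607 to 0.0726 for Gria4 (reversed without EGFP replicate 1 or CCNY-WT replicate 1) and from -0.216 to 0.122 for Cacng3 (reversed without EGFP replicate 2). In CCNY-shRNA it ran from -0.00753 to 0.190 for Cacng8 (reversed without CCNY-shRNA replicate 1). Against CCNY-WT it ran from -0.304 to 0.0214 for Cacng2 (reversed without CCNY-WT replicate 1), from -0.103 to 0.0939 for Cacng8 (reversed without CCNY-WT replicate 1 or CCNY-shRNA replicate 2) and from -0.0637 to 0.212 for Cnih2 (reversed without CCNY-shRNA replicate 2). Cnih2 passed in CCNY-shRNA without CCNY-shRNA replicate 1, with 1 library left in that arm and the spread taken from the other groups.

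With 1 library left out, 0 to 1 members were called in CCNY-shRNA, and 2 to 5, 0 to 1 and 0 to 2 had an unadjusted p under 0.05 in CCNY-shRNA, CCNY-WT and the direct comparison. The fold criterion held for 0 to 1 members in CCNY-WT and 0 to 3 in CCNY-shRNA. Related genes called numbered 0 to 1 in CCNY-shRNA and 0 to 1 in the direct comparison. Without the filter, the count of 5 members dropped to 1, that of 1 in CCNY-WT to 0, and related calls to 0 in both comparisons. Without the trend, these counts were 1, 0 and 0, with 0 members in the direct comparison. With only the libraries compared, related calls were 1 in CCNY-shRNA and 0 in the direct comparison, and median-ratio scaling gave 0 members in CCNY-WT. The cause was not tested. Quantile normalization reversed the difference of CCNY-shRNA from EGFP in the share of Gria2, from 0.278 to -0.092 points. It moved that difference from -0.209 to -0.0547 points for the share of Gria3. For the ratio of 6 TARPs to subunits it moved from 0.128 to 0.136. Against CCNY-WT the difference in this ratio became 0.0778.

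Deviations of same-numbered libraries correlated at 0.0952, -0.0197 and 0.0775, so the numbers were not taken as pairs. With a replicate block, 0 members were called in all 3 comparisons and over all genes 8 rose and 31 fell in CCNY-shRNA, against 17 and 59 without it. Having 2 libraries per condition and unknown read counts limits what could be detected.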
